A study of Mus musculus with 15 samples.

Results

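Fibroblast growth factor (FGF) ligands and receptors were followed in cultured mesenchymal stromal cells (MSCs) from mice with and without the taurine transporter TauT, which is encoded by *Slc6a6*. The 10 genes were taken by symbol and comprise 6 ligands (*Fgf1*, *Fgf2*, *Fgf7*, *Fgf11*, *Fgf18* and *Fgf23*) and 4 receptors (*Fgfr1*, *Fgfr2*, *Fgfr3* and *Fgfrl1*), out of 56832 genes in the count table. All 10 passed the filter on low counts and belong to the 18263 genes that were tested. The log2 fold changes farthest below 0 in TauT-/- relative to TauT+/+ MSCs were those of *Fgfr2*, *Fgf23*, *Fgf1*, *Fgfrl1* and *Fgf2*, while *Fgfr1* and *Fgf7* had nearly equal means in both genotypes. None of the 10 genes passed an adjusted p of 0.05 in the edgeR quasi-likelihood test, and *Fgfr2* and *Fgfrl1* were the closest to that threshold.

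The samples were CD45- MSC cultures grown from the long bones of 16 week old mice of C57BL/6J background, in which TauT was lost in the whole animal and not in MSCs alone. TauT+/+ mice were the controls, with 4 libraries labelled male and 3 labelled female, and the TauT-/- mice gave 4 libraries of each sex label. All cultures had adhered to collagen in medium without ascorbic acid and had been depleted of CD45, Ter119 and CD31 positive cells, so no group had been induced to differentiate. The labels do not say whether each library came from its own animal, and the p-values measure the spread between these libraries, part of which may be technical.

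FGF ligands bind receptor tyrosine kinases on the cell surface together with heparan sulfate, and the activated receptor signals through adaptor proteins to the MAP kinase and PI3 kinase cascades. Most ligands act on neighbouring cells, whereas FGF23 is a hormone from bone that controls phosphate in the kidney, and FGF11 belongs to the intracellular members that do not signal through these receptors. In the skeleton FGFR1 and FGFR2 act in osteoprogenitors, FGFR3 restrains growth plate chondrocytes, and FGF2 is a mitogen for cultured stromal cells.

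The promoter-proximal sequences of the 3 receptor genes whose levels moved together across libraries are shown because they differ widely in GC content. Each is the 250 bases before a transcription start in the RefSeq table of GRCm38.p6, read on the strand of the gene, and capitals mark the GC box GGGCGG or its reverse complement CCGCCC.
Fgfr2 (chr7:130266809-130267058, minus strand): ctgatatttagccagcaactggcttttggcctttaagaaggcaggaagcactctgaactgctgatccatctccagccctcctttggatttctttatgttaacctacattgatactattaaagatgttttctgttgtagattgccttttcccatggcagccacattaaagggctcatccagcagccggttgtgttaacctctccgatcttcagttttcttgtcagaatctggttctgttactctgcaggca
Fgfrl1 (chr5:108693979-108694228, plus strand): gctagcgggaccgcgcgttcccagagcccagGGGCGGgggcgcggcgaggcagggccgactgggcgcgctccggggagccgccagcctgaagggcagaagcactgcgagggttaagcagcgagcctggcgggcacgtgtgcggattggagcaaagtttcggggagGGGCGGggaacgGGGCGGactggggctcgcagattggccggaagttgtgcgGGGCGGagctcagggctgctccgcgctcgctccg
Fgfr3, first listed start (chr5:33721474-33721723, plus strand): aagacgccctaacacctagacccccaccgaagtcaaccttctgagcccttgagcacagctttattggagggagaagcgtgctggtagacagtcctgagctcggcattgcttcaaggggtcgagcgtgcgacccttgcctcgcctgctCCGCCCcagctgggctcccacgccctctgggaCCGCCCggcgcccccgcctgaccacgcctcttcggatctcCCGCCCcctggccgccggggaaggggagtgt
Fgfr3, second listed start (chr5:33722056-33722305, plus strand): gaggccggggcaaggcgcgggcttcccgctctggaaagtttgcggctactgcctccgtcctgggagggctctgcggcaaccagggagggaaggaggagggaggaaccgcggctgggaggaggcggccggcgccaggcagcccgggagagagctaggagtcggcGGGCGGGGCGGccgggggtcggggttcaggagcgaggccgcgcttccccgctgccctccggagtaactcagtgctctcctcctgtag
The *Fgfr2* stretch held 44.0% G and C, 2 CpG dinucleotides and 0 GC boxes. The *Fgfrl1* stretch held 73.6% G and C, 30 CpG dinucleotides and 4 GC boxes, and the *Fgfr3* stretches held 66.8% and 72.8% G and C, with 3 GC boxes and 2 overlapping ones. A GC box was present in 32.7% of the 32851 promoter stretches of this length in the table. The TCF/LEF core CTTTGA was found in 13.8% and the TATA box TATAAA in 12.4% of all stretches, each searched on both strands, and neither was found in these 4. The match of letters is a description and not a binding site. The table holds no entry for *Fgfr1*.

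Total counts ranged from 69764291 to 101575071 in male-labelled and from 12761107 to 20781070 in female-labelled libraries, so depth and sex label cannot be told apart, and each depth held both genotypes. *Slc6a6* was detected in every library, at 586 to 2655 CPM in TauT+/+ and 392 to 1571 CPM in TauT-/- (log2 fold change -0.94, SE 0.37, edgeR adjusted p = 0.141), and the genotypes overlapped. In 3 libraries the higher of *Xist* and *Ddx3y* was that of the other sex than labelled, TauT+/+ male 1, TauT-/- male 1 and TauT+/+ female 3. TauT+/+ female 3 still had 14.0 CPM of *Xist* beside 81.7 CPM of *Ddx3y*, and TauT-/- male 2 had 8.24 and 54.8 CPM. The other male-labelled libraries with *Ddx3y* above *Xist* had at most 0.467 CPM of *Xist*. Whether TauT+/+ female 3 and TauT-/- male 2 hold material of both sexes was not tested. The libraries labelled male 1 and female 1 of each genotype stood closer to each other than any other pair, with a spread of log2 values of 0.109 for TauT-/- and 0.121 for TauT+/+, against 0.300 for the next closest pair and 0.0643 and 0.0672 from counting alone. They were counted as separate libraries, and fits with 1 library of each pair are given with the results. Of the 9 MSC markers, 5 had a log2 fold change below 0 and 4 above, with a median of -0.04. Those below were *Eng* (-1.70), *Cxcl12* (-1.46), *Pdgfra* (-1.44), *Pdgfrb* (-0.57) and *Lepr* (-0.04). Those above were *Cd44* (0.81), *Ly6a* (0.23), *Itgb1* (0.20) and *Itgav* (0.02). In edgeR 0 of the 9 passed. At an unadjusted edgeR p under 0.05, 2 were lower (*Pdgfra* and *Pdgfrb*) and 1 higher (*Cd44*), and DESeq2 called 1 lower (*Pdgfra*, adjusted p = 0.0342). The summed level of the 9 ranged from 4817 to 26326 CPM in TauT+/+ (median 15220) and from 2469 to 16833 CPM in TauT-/- (median 4995). *Cxcl12* was the largest part of that sum, with means of 12039 and 4385 CPM (log2 fold change -1.46, edgeR adjusted p = 0.402). Of the 14 macrophage markers, all had a log2 fold change above 0, 12 had an unadjusted edgeR p under 0.05, DESeq2 called 7 higher and edgeR 1 (*Cd68*, log2 fold change 1.5, edgeR adjusted p = 0.0432, and 0.0703 to 0.156 in the fits of 13 and 12 libraries). Their sum ranged from 1472 to 9696 CPM in TauT+/+ (median 8323) and from 6715 to 21567 CPM in TauT-/- (median 16064). *Ptprc*, which encodes the CD45 used for depletion, was read at 28.6 to 177 CPM in TauT+/+ and 112 to 379 CPM in TauT-/-. Endothelial markers summed to at most 20.0 CPM in TauT+/+ and 114 CPM in TauT-/-, with 0 of 7 tested past the edgeR threshold (2 at an unadjusted p under 0.05, 1 called by DESeq2), and 0 of 7 tested osteoblast and osteocyte markers passed (1 at an unadjusted p under 0.05, 0 by DESeq2), with *Sost* at 0 counts in every library. None of the 5 erythroid markers had enough counts to be tested. In these bulk samples fewer cells of a type and less RNA per cell cannot be told apart, and the part of any cell type in the FGF values was not tested.

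Levels below are CPM, the reads of a gene scaled by the size of its library after TMM, and fold changes are TauT-/- relative to TauT+/+ from the edgeR model with sex label and genotype. Of the 10 genes, 0 were called lower at an adjusted p of 0.05, against 0.591% of all tested genes, and 0 were called higher, against 0.564%. At an unadjusted p of 0.05 the edgeR test marked 3 of the 10 as lower (*Fgfr2*, *Fgfrl1* and *Fgf23*), beside 11.8% of all tested genes. DESeq2 on the same model called these 3 genes lower, where it called 6.31% of all tested genes lower. Of these 3, *Fgf23* had at most 0.29 CPM in TauT-/- and passed the filter on low counts through TauT+/+ libraries where it was high. Its lower level is therefore given as a description only. limma voom called 2 (2.93% of tested genes), edgeR without the sex label 1 (*Fgfr2*, 1.11%) and edgeR with the replicate number as a block 1 (*Fgfrl1*, 0.559%). With RLE scaling (0.602%), upper-quartile scaling (0.728%), no filter (0.126%), at least 10 counts in every library (1.65%) or the filter by the model (0.75%), edgeR called 0 of the tested FGF genes. In the fits of 13 and 12 libraries (1 library of each close pair left out, or without the 3 at odds with their sex label), edgeR called 0, beside 0.0% of tested genes. Leaving out TauT+/+ male 3 gave 2 called genes (4.55%) and leaving out TauT-/- male 2 gave 2 (0.77%). All 10 log2 fold changes were below 0, beside 49.5% of tested genes, with a median of -1.09 where the median of all tested genes was 0.0049. For 5 of the 10 the log2 fold change was below -1, beside 7.67% of tested genes. The 10 genes were chosen with earlier results of these data known, so their shared direction is a description only. In none of the 10 were the TauT+/+ and TauT-/- libraries free of overlap, and 0.334% of tested genes were lower without overlap.

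**Figure D1:**
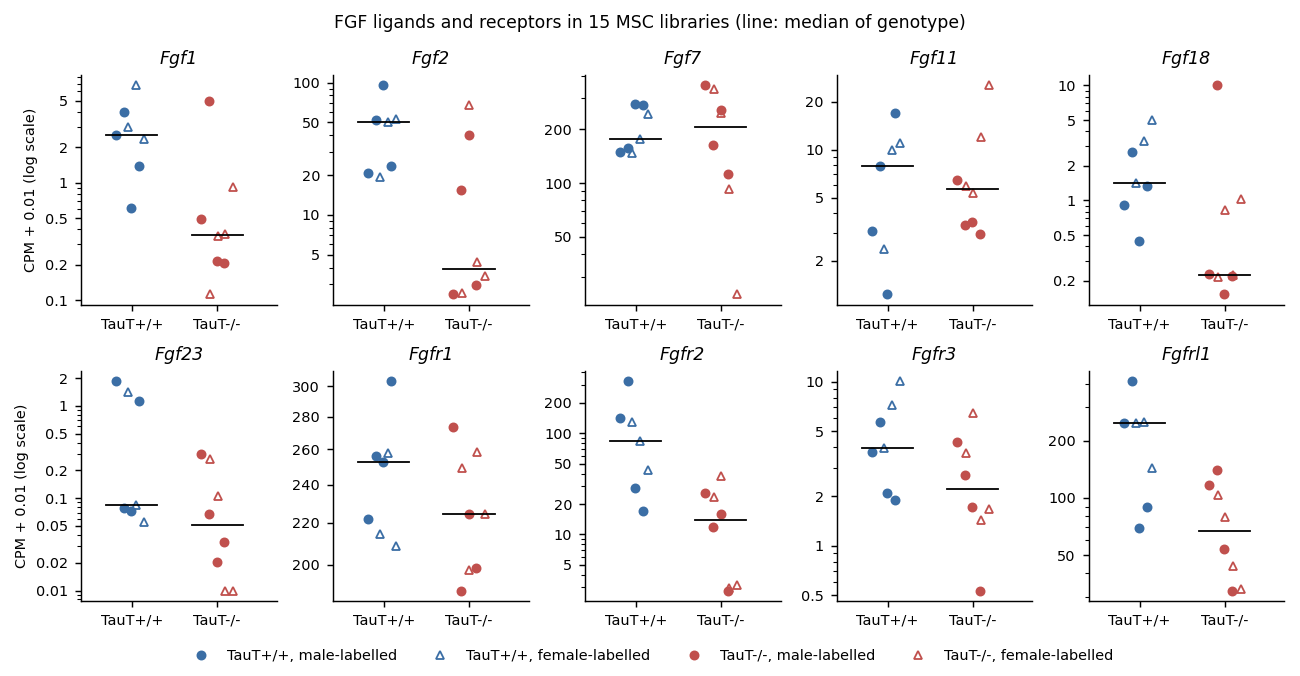
Level of each FGF gene in the 15 libraries, as CPM + 0.01 on a log axis, by genotype and sex label, with a line at the median of each genotype. *Fgfr1* lies within a 1.61-fold range across all libraries, while *Fgfr2* spans 117-fold and all 8 TauT-/- libraries lie below the TauT+/+ median of 83.5 CPM.

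*Fgfr1*, a receptor of the mesenchyme with broad ligand binding, was the steadiest of the 10 genes. Its level was 209, 253 and 303 CPM (lowest, median and highest) in the 7 TauT+/+ libraries and 189, 224 and 274 CPM in the 8 TauT-/- libraries. The ranges overlapped in part, with 3 of 8 TauT-/- libraries below the lowest TauT+/+ library and 1 of 7 TauT+/+ libraries above the highest TauT-/- library, and the SD of the log2 values was 0.19 in TauT+/+ and 0.20 in TauT-/-. The mean was 245 ± 32.9 CPM (SD, n = 7) against 227 ± 31.1 CPM (SD, n = 8), which gave a log2 fold change of -0.11 (SE 0.12, edgeR adjusted p = 0.602). *Fgfr1* lies on chromosome 8 of GRCm39 from 26003670 to 26066824.

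*Fgfr2*, whose splice forms serve mesenchymal and epithelial ligands, had the widest range of the receptors. In male-labelled libraries it was read at 143, 326, 29.0 and 16.9 CPM in TauT+/+ and at 25.8, 11.9, 15.9 and 2.79 CPM in TauT-/-. In female-labelled libraries the values were 128, 83.5 and 43.2 CPM in TauT+/+ and 23.7, 38.1, 2.98 and 3.18 CPM in TauT-/-. The genotypes overlapped among male-labelled libraries and did not overlap among female-labelled ones. TauT-/- male 4, female 3 and female 4 were the lowest 3 libraries, and 5 of 8 TauT-/- libraries lay below the lowest TauT+/+ library. In those lowest 3, macrophage markers summed to 16163, 15966 and 21567 CPM and MSC markers to 4659, 3930 and 2469 CPM. In TauT+/+ male 2, the highest library, the sums were 1472 and 25042 CPM. Other libraries ran differently. TauT-/- female 2, the highest of its genotype for *Fgfr2*, had sums of 19528 and 6480 CPM. TauT+/+ male 4, the lowest of its genotype, had sums of 5366 and 5544 CPM. The part of these markers in the *Fgfr2* values was not tested. The mean was 110 ± 107 CPM in the TauT+/+ group (SD, n = 7) and 15.5 ± 12.9 CPM in the TauT-/- group (SD, n = 8), or a log2 fold change of -2.79 (SE 0.74, edgeR adjusted p = 0.0650) and a 6.94-fold difference. Within the labels the log2 fold change was -3.19 (SE 1.05) in male and -2.32 (SE 1.06) in female libraries, and the difference between them was 0.87 (SE 1.43, edgeR adjusted p = 1.00).

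The call for *Fgfr2* depended on the method and on 1 control library. The adjusted p was 0.0018 with DESeq2 and 0.0357 with limma voom and sample weights, and it was 0.0366 in edgeR without TauT+/+ male 3. With 1 library of each close pair the edgeR adjusted p was 0.0967 and 0.129, and it was 0.163 without the 3 libraries with *Xist* and *Ddx3y* at odds with their label. The log2 fold change stayed between -3.15 and -2.26 when each library was left out in turn. In the later GENCODE M39 annotation *Fgfr2* spans chromosome 7 from 129763471 to 132725079 and shares 314 exon bases, 2.77% of its own, with *Ctbp2* on the same strand, which was read at 32.1 to 55.9 CPM.

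*Fgfr3* was the weakest of the receptors per kb of exon. It was read at 1.90, 3.93 and 10.1 CPM (lowest, median and highest) in TauT+/+ and at 0.52, 2.20 and 6.43 CPM in TauT-/-. The ranges overlapped, with 4 of 8 TauT-/- libraries below the lowest TauT+/+ library. Means were 4.94 ± 2.93 CPM (SD, n = 7) and 2.80 ± 1.92 CPM (SD, n = 8), which gave a log2 fold change of -0.79 (SE 0.44, edgeR adjusted p = 0.297).

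*Fgfrl1* encodes a receptor that binds ligand but lacks the kinase domain. The male-labelled TauT+/+ values were 247, 411, 69.5 and 89.3 CPM, and the male-labelled TauT-/- values were 118, 140, 53.8 and 32.5 CPM. The female-labelled values were 248, 251 and 144 CPM for TauT+/+ and, for TauT-/-, 104, 79.7, 43.7 and 33.3 CPM. All 8 TauT-/- libraries lay below the TauT+/+ median of 247 CPM, and 5 of 7 TauT+/+ libraries lay above the highest TauT-/- library. TauT+/+ male 3 and male 4 were the low controls for *Fgfrl1*, as they were for *Fgfr2*.

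The *Fgfrl1* mean was 208 ± 118 CPM in the TauT+/+ group (SD, n = 7) and 75.6 ± 41.3 CPM in the TauT-/- group (SD, n = 8), or a log2 fold change of -1.46 (SE 0.42, edgeR adjusted p = 0.0761) and a 2.76-fold difference. The log2 fold change was -1.25 (SE 0.59) in male and -1.71 (SE 0.63) in female libraries, and their difference was -0.47 (SE 0.86, edgeR adjusted p = 1.00). The adjusted p was 0.0126 with DESeq2, 0.0273 with limma voom and 0.0329 in edgeR without TauT+/+ male 3. With the replicate number as a block, the edgeR log2 fold change of *Fgfrl1* was -1.30 (SE 0.16, adjusted p = 0.0385). That block also joined female-labelled libraries by number, and only number 1 of these correlated best with its own number. *Fgfrl1* was not called in edgeR with 1 library of each close pair, at an adjusted p of 0.104 and 0.131. Nor was it called without the 3 libraries with *Xist* and *Ddx3y* at odds with their label, at 0.169. Leaving out each library in turn kept the log2 fold change between -1.66 and -1.22. *Fgfrl1* lies on chromosome 5 of GRCm39 from 108840206 to 108858366.

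*Fgf1*, which can bind every FGF receptor, was a low ligand with 2 to 431 counts per library. It was read at 0.60, 2.55 and 6.80 CPM (lowest, median and highest) in TauT+/+ and 0.10, 0.35 and 5.0 CPM in TauT-/-. TauT-/- male 2 held the 5.0 CPM, the other 7 TauT-/- libraries were at or below 0.92 CPM, and 6 of 8 lay below the lowest TauT+/+ library. The means were 2.94 ± 2.02 CPM (SD, n = 7) and 0.950 ± 1.66 CPM (SD, n = 8), which gave a log2 fold change of -1.73 (SE 0.83, edgeR adjusted p = 0.221). Without TauT-/- male 2 it was -3.05 (SE 0.52, edgeR adjusted p = 0.0232). The female-labelled genotypes did not overlap for *Fgf1* and the male-labelled ones did.

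*Fgf2*, the mitogen for stromal cells, was split among TauT-/- libraries more than among TauT+/+ libraries. The male-labelled values were 20.6, 52.3, 95.9 and 23.3 CPM for TauT+/+ and, for TauT-/-, 2.52, 15.4, 40.1 and 2.93 CPM. The female-labelled values were 19.3, 50.3 and 53.1 CPM for TauT+/+ and, for TauT-/-, 2.56, 67.7, 4.40 and 3.45 CPM. TauT-/- female 2 and male 3 lay inside the TauT+/+ range, and the other 6 TauT-/- libraries lay below the lowest TauT+/+ library. TauT-/- female 2 had the highest *Fgf2* of its genotype at a macrophage marker sum of 19528 CPM. The mean was 45.0 ± 27.3 CPM (SD, n = 7) against 17.4 ± 24.1 CPM (SD, n = 8), which gave a log2 fold change of -1.39 (SE 0.78, edgeR adjusted p = 0.297). The SD of the log2 values was 0.88 in TauT+/+ and 1.90 in TauT-/-. Without TauT-/- female 2 the log2 fold change was -2.44 (SE 0.68, edgeR adjusted p = 0.0830).

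The *Fgf2* locus, on chromosome 3 of GRCm39 from 37402473 to 37464257, shares 3073 exon bases, 44.9% of those of *Fgf2*, with *Nudt6* on the opposite strand. *Nudt6* encodes a nudix hydrolase and was read at 2.74 ± 0.42 CPM in the TauT+/+ group (SD, n = 7) and 3.03 ± 0.82 CPM in the TauT-/- group (SD, n = 8) (log2 fold change 0.14, edgeR adjusted p = 0.708). It did not move with *Fgf2* in that comparison, with 27 to 313 counts per library. The 5 genes with at least 1 CPM whose levels ranked most like *Fgf2* over the 15 libraries were *Dpysl3* (Spearman's rho 0.936), *Ttll5* (0.914), *Ints4* (0.904), *H1f4* (0.904) and *H3c15* (0.893). These are the highest values among all such genes and were not tested. They count both libraries of each close pair and include the difference between the genotypes.

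*Fgf7*, the keratinocyte growth factor that acts on the epithelial form of FGFR2, was the most abundant ligand per kb of exon. Male-labelled libraries had 149, 158, 277 and 274 CPM in TauT+/+ and 355, 165, 256 and 113 CPM in TauT-/-. Female-labelled libraries had 147, 176 and 245 CPM in TauT+/+ and 335, 248, 92.3 and 23.9 CPM in TauT-/-. TauT-/- male 1 and female 1, which are a close pair, lay above every TauT+/+ library, and TauT-/- male 4, female 3 and female 4 lay below every TauT+/+ library. The means were 204 ± 59.2 CPM (SD, n = 7) and 199 ± 119 CPM (SD, n = 8), which gave a log2 fold change of -0.03 (SE 0.42, edgeR adjusted p = 0.979), and its sign changed when any of 7 single libraries was left out. The SD of the log2 values was 0.42 in TauT+/+ and 1.29 in TauT-/-. *Fgf7* lies on chromosome 2 of GRCm39 from 125876578 to 125934218.

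*Fgf18*, a ligand with roles in bone and cartilage, was low, with 3 to 869 counts per library. It was read at 0.44, 1.40 and 5.0 CPM (lowest, median and highest) in TauT+/+ and 0.14, 0.22 and 10.1 CPM in TauT-/-. TauT-/- male 2, which was also high in *Fgf1*, held the 10.1 CPM, and the other 7 TauT-/- libraries were at or below 1.02 CPM. The means were 2.14 ± 1.6 CPM (SD, n = 7) and 1.62 ± 3.44 CPM (SD, n = 8), which gave a log2 fold change of -0.59 (SE 1.06, edgeR adjusted p = 0.771). Without that library it was -2.66 (SE 0.49, edgeR adjusted p = 0.0304). The log2 fold change was 1.01 (SE 1.17) in male and -2.5 (SE 1.32) in female libraries, and the difference of -3.51 (SE 1.77) had an edgeR adjusted p of 1.00.

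*Fgf11*, the intracellular member, gave no steady direction. It was read at 1.23, 7.89 and 17.0 CPM (lowest, median and highest) in TauT+/+ and 2.94, 5.63 and 25.5 CPM in TauT-/-. The means were 7.50 ± 5.68 CPM (SD, n = 7) and 8.14 ± 7.60 CPM (SD, n = 8), while the log2 fold change from the model with sex label was -0.18 (SE 0.58, edgeR adjusted p = 0.884) and 0.11 without the sex label.

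*Fgf23*, the phosphate hormone, was close to the limit of detection, with 0 to 127 counts per library. TauT+/+ male 1, female 1 and male 4 had 1.83, 1.40 and 1.13 CPM, and the other 4 TauT+/+ libraries had 0.0459 to 0.0747 CPM. TauT-/- libraries had at most 0.29 CPM, in male 1, and 0 counts in female 3 and female 4, which allow up to 0.213 and 0.162 CPM by counting error alone. The means were 0.660 ± 0.772 CPM (SD, n = 7) and 0.0918 ± 0.117 CPM (SD, n = 8), which gave a log2 fold change of -2.79 (SE 1.03, edgeR adjusted p = 0.127, DESeq2 adjusted p = 0.0472). The 3 high controls include 1 close pair. *Fgf23* passed the filter on low counts through these controls, so its lower level in TauT-/- is a description only.

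**Figure D2:**
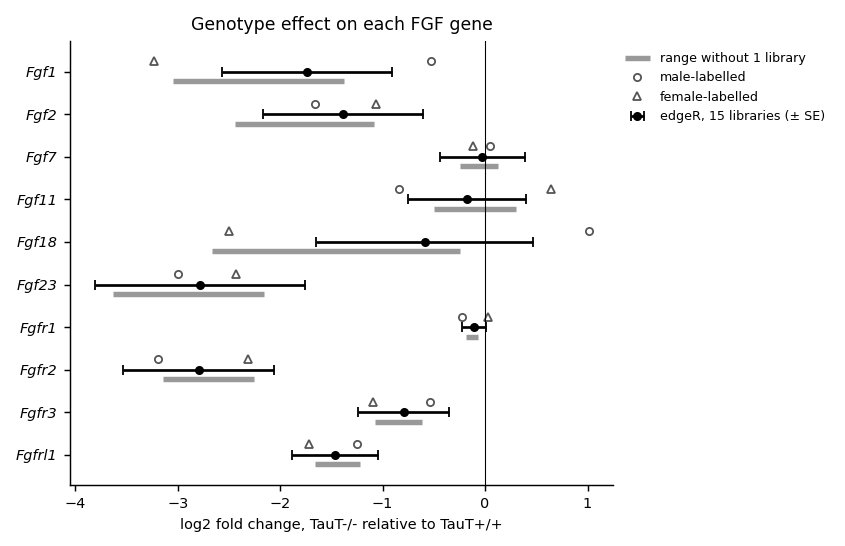
Log2 fold change of each FGF gene, TauT-/- relative to TauT+/+, with its SE (black), the range over fits without 1 library (grey bar) and the values within each sex label (open symbols). The grey bars of *Fgfr2* (-3.15 to -2.26) and *Fgfrl1* (-1.66 to -1.22) stay away from 0, while those of *Fgf7* and *Fgf11* cross it.

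The edgeR interaction test called 0 of the FGF genes different in genotype effect between male and female labels, beside 0.0% of all tested genes. The smallest unadjusted p was 0.0677 for *Fgf18* (1.62% of tested genes had an unadjusted p under 0.05). The close pairs put like libraries on both sides of this contrast, and 3 libraries were at odds with their sex label. The test therefore cannot show that the genotype effect is alike in the sexes. Within female-labelled libraries the genotypes did not overlap for *Fgf1*, *Fgf18*, *Fgfr2* and *Fgfrl1*, with every TauT-/- value the lower. The share of all tested genes that separate in this way, at 3 against 4 libraries, was not counted. So few libraries can separate by chance, and the separation of these genes is a description only. Within male-labelled libraries the genotypes overlapped for all 10 genes. Male-labelled libraries of the same replicate number deviated from their group means together, and compared number by number *Fgf2*, *Fgf23*, *Fgfr2* and *Fgfrl1* were lower in TauT-/- in 4 of 4 pairs, beside 10.6% of tested genes. Of these pairs, number 1 held both male-labelled libraries at odds with their sex label. With the number as a block, edgeR on the male-labelled libraries called 0 of the FGF genes tested, beside 0.0% of tested genes lower, and 1584 of 16779 genes had an unadjusted p under 0.05. The log2 fold changes there were -2.65 for *Fgfr2* (SE 0.66), -2.26 for *Fgf2* (SE 0.37) and -1.12 for *Fgfrl1* (SE 0.23), with an edgeR adjusted p of 0.513 for each.

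To compare genes with each other, CPM was divided by the length of the merged exons, which gives CPM per kb. In TauT+/+ the order was *Fgf7* (46.3 ± 13.5 CPM per kb, SD, n = 7), *Fgfrl1* (29.4 ± 16.7), *Fgfr1* (19.2 ± 2.58), *Fgfr2* (9.69 ± 9.42) and *Fgf2* (6.58 ± 3.99), followed by *Fgf11* (2.45 ± 1.85), *Fgf18* (0.969 ± 0.725), *Fgfr3* (0.560 ± 0.332), *Fgf1* (0.348 ± 0.238) and *Fgf23* (0.245 ± 0.286). In TauT-/- the order was *Fgf7* (45.1 ± 27.1 CPM per kb, SD, n = 8), *Fgfr1* (17.8 ± 2.44), *Fgfrl1* (10.7 ± 5.83), *Fgf11* (2.65 ± 2.48), *Fgf2* (2.54 ± 3.53) and *Fgfr2* (1.37 ± 1.14), with *Fgf18*, *Fgfr3*, *Fgf1* and *Fgf23* below 1. Every gene overlapped its neighbour in the order in both genotypes, and the order depended on the length used. With the longest transcript as the length, *Fgfrl1* and *Fgfr1* changed places in TauT+/+, *Fgfr2* was the fourth gene in both genotypes, and in TauT-/- *Fgfr2*, *Fgf2* and *Fgf11* followed each other at 2.75, 2.75 and 2.65 CPM per kb. *Fgf11* exceeded *Fgf18*, and *Fgfr3* exceeded *Fgf1*, in 7 of 7 TauT+/+ libraries.

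**Figure D3:**
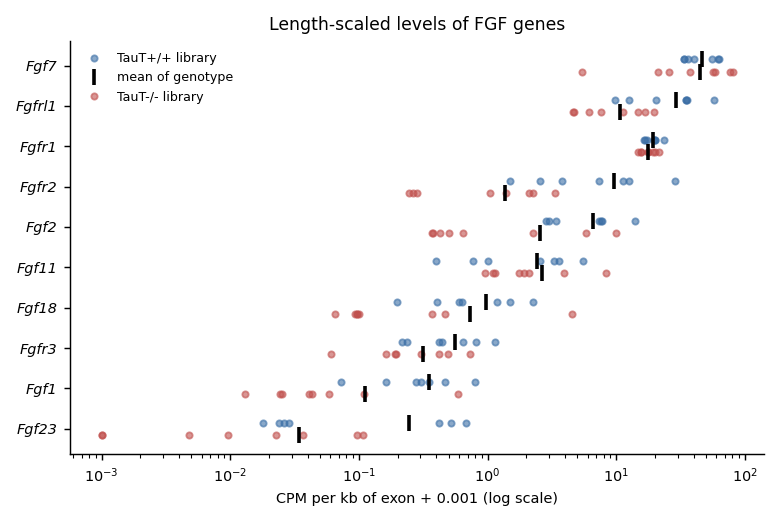
Level of each FGF gene per kb of merged exon, as CPM per kb + 0.001 on a log axis, with 1 point per library and a bar at the mean of each genotype. *Fgf7*, *Fgfrl1* and *Fgfr1* are the 3 highest genes in both genotypes, and the *Fgfr2* mean moves from 9.69 to 1.37 CPM per kb.

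Ligand was then set against receptor by summing the 6 ligand and the 4 receptor genes in each library. The ligand sum was 56.9 ± 16.2 CPM per kb in the TauT+/+ group (SD, n = 7) and 51.2 ± 26.4 in the TauT-/- group (SD, n = 8), and the ranges overlapped widely. The receptor sum was 58.9 ± 25.4 CPM per kb in TauT+/+ (32.4 to 107) and 30.1 ± 7.19 in TauT-/- (20.4 to 40.8), and 5 of 8 TauT-/- libraries lay below the lowest TauT+/+ library. The log2 ratio of ligand to receptor was 0.01 ± 0.96 in TauT+/+ and 0.58 ± 0.68 in TauT-/-, a difference of 0.58 that is less than the spread between libraries. It was -0.11 when *Fgf7* was left out, and *Fgf7* made up 81.5 ± 4.98% of the ligand sum in TauT+/+ and 82.4 ± 19.6% in TauT-/-. The exception was TauT-/- female 4, where *Fgf11* was 56.1% and *Fgf7* 36.7% of the ligand sum. The intracellular *Fgf11* is counted in the ligand sum although it does not signal through these receptors, and without it the difference in the log2 ratio was 0.43. These sums were not tested, since they rest on the chosen genes.

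The receptor sum differed in make-up between the genotypes. *Fgfr1* was 38.0 ± 17.4% of it in TauT+/+ and 61.4 ± 14.0% in TauT-/-. *Fgfrl1* was 47.2 ± 10.8% and 33.4 ± 11.9%, and *Fgfr2* was 13.8 ± 7.88% and 4.22 ± 3.38%. For single pairs of genes, the log2 ratio of *Fgf7* to *Fgfr2* per kb was 2.81 ± 1.86 in TauT+/+ and 5.28 ± 0.90 in TauT-/-. The *Fgfr2* count does not separate splice forms, so this is not a ratio to the epithelial form that FGF7 binds. The log2 ratio of *Fgf2* to *Fgfr1* was -1.76 ± 0.88 in TauT+/+ and -3.97 ± 2.03 in TauT-/-, with 5 of 8 TauT-/- libraries below the lowest TauT+/+ library. The ranges of both ratios overlapped between the genotypes.

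The receptors other than *Fgfr1* also varied together from library to library. Over 13 libraries, with the male-labelled library of each close pair kept, 5 of 45 pairs of the 10 genes had an adjusted permutation p under 0.05 by both Pearson's r and Spearman's rho (Benjamini-Hochberg over the 45 pairs). *Fgfr2* and *Fgfrl1* had r = 0.915 (permutation p = 4e-05, adjusted 0.0018) and rho = 0.863 (permutation p = 0.00035, adjusted 0.0079), and r was 0.850 without the 2 libraries farthest from the median of *Fgfr2*. Within the genotypes rho was 0.886 in the 6 TauT+/+ and 0.714 in the 7 TauT-/- libraries, and within the 8 male-labelled libraries it was 0.690. The 5 female-labelled libraries were under the minimum of 6 set for a correlation, and no value is given for them. *Fgfr2* and *Fgfr3* had r = 0.771 (permutation p = 0.0021, adjusted 0.022) and rho = 0.841 (permutation p = 0.0007, adjusted 0.0083), but rho was 0.486 in TauT+/+ and 0.964 in TauT-/-. In male-labelled libraries it was 0.762, and r was 0.714 without the 2 farthest libraries. *Fgfr3* and *Fgfrl1* had r = 0.758 (permutation p = 0.0024, adjusted 0.022) and rho = 0.824 (permutation p = 0.00074, adjusted 0.0083), with rho of 0.543 in TauT+/+, 0.821 in TauT-/- and 0.905 in male-labelled libraries and r of 0.757 without the 2 farthest. *Fgf1* and *Fgf18* had r = 0.888 (permutation p = 0.00011, adjusted 0.0025) and rho = 0.890 (permutation p = 0.00013, adjusted 0.0058), with rho of 0.543 in TauT+/+, 0.857 in TauT-/- and 0.952 in male-labelled libraries and r of 0.855 without the 2 farthest. *Fgf1* and *Fgfrl1* had r = 0.805 (permutation p = 0.0013, adjusted 0.020) and rho = 0.819 (permutation p = 0.0011, adjusted 0.0096), with rho of 0.943 in TauT+/+, 0.536 in TauT-/- and 0.857 in male-labelled libraries and r of 0.801 without the 2 farthest. The pooled values of all pairs include the difference between the genotypes. *Fgf7* and *Fgfr2* ran in opposite ways within the genotypes, with rho of -0.886 in TauT+/+ and 0.750 in TauT-/-, and the pooled rho was 0.280 (permutation p = 0.35, adjusted 0.64). This pair was singled out among the 45, its values within genotypes rest on 6 and 7 libraries, and their difference was not tested.

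Over the rest of the FGF pathway the log2 fold changes lay on both sides of 0. Of 101 other pathway genes in 6 lists, 85 were tested, 42 of them with a log2 fold change below 0 and 43 above, with a median of 0.004 beside 0.0049 for all tested genes. In edgeR 1 of the 85 was lower and 0 were higher, where it called 0.591% of all tested genes lower and 0.564% higher. In DESeq2 8 were lower and 5 were higher, where it called 6.31% of tested genes lower and 5.28% higher. The other ligands were nearly silent, with 6 of 16 tested, and every one had a mean below 1 CPM. Of these 6 ligands 5 had a log2 fold change below 0 and 1 above, with a median of -0.59, and 0 passed in edgeR or DESeq2 and 0 had an unadjusted edgeR p under 0.05. *Kl*, the co-receptor that FGF23 needs, had at most 7 counts in a library.

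Among other receptors and co-receptors, 7 of 10 were tested, 4 below 0 and 3 above, and 0 passed in edgeR. DESeq2 called 1 lower and 1 higher, where it called 6.31% of tested genes lower and 5.28% higher. *Klb*, the co-receptor for the endocrine ligands FGF15 and FGF21, had the largest difference and was picked after its values were seen. It had 1.11 ± 1.41 CPM in the TauT+/+ group (SD, n = 7) and 0.0334 ± 0.0333 CPM in the TauT-/- group (SD, n = 8) (log2 fold change -5.03, edgeR adjusted p = 0.0594, DESeq2 adjusted p = 0.0013). *Klb* ranged from 0.0 to 3.86 CPM in TauT+/+ and reached at most 0.10 CPM in TauT-/-. It passed the filter on low counts through TauT+/+ libraries where it was high, so this difference near the limit of detection is a description only. *Flrt3*, a membrane protein that binds FGF receptors, went the other way, from 0.857 ± 0.621 to 5.11 ± 4.44 CPM (log2 fold change 2.39, edgeR adjusted p = 0.0606, DESeq2 adjusted p = 0.0010). *Flrt2*, of the same family, had 17.7 ± 30.3 and 32.1 ± 38.6 CPM (log2 fold change 0.81, edgeR adjusted p = 0.663). Of the heparan sulfate genes 21 of 22 were tested, 11 below 0 and 10 above. In edgeR 0 passed, and DESeq2 called 1 lower and 1 higher. *Hs6st2*, a sulfotransferase of heparan sulfate, had 162 ± 99.2 and 77.0 ± 37.8 CPM (log2 fold change -1.06, edgeR adjusted p = 0.113, DESeq2 adjusted p = 0.0448). *Hs3st1*, another one, had 0.748 ± 0.675 and 1.26 ± 1.28 CPM (log2 fold change 0.92, edgeR adjusted p = 0.490).

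Of the 24 genes of signal transduction, 10 had a log2 fold change below 0 and 14 above, and 1 fell in edgeR. DESeq2 called 3 lower and 2 higher. *Pik3r1*, the regulatory subunit of PI3 kinase, fell in TauT-/- libraries, where it was read at 155 ± 21.2 CPM (SD, n = 8) and the controls at 325 ± 135 CPM (SD, n = 7), which gave a log2 fold change of -1.06 (SE 0.22, edgeR adjusted p = 0.0396, DESeq2 adjusted p = 0.00037). The call was lost in edgeR with 1 library of each close pair (adjusted p = 0.0787 and 0.110) and without the 3 libraries at odds with their sex label (0.156), and with each library left out in turn *Pik3r1* passed in 4 of 15 fits (edgeR adjusted p from 0.0074 to 0.104). *Gab1*, a docking adaptor, had 37.4 ± 12.9 and 22.5 ± 4.59 CPM (log2 fold change -0.73, edgeR adjusted p = 0.0767, DESeq2 adjusted p = 0.0189). Of the 20 tested genes among feedback inhibitors and targets, 10 lay below 0 and 10 above, and 0 passed in edgeR. DESeq2 called 3 of them lower and 1 higher, where it called 6.31% of tested genes lower and 5.28% higher. *Fos* and *Egr1*, immediate early genes, had log2 fold changes of -1.93 and -1.62 with edgeR adjusted p of 0.109 for both. Their DESeq2 adjusted p was 0.0263 and 0.0319. *Spry1*, an inhibitor of receptor signalling, was chosen after its values were seen. It had 126 ± 41.5 and 43.4 ± 29.9 CPM (log2 fold change -1.53, edgeR adjusted p = 0.0636, DESeq2 adjusted p = 0.0059). The likewise chosen *Spry2* (log2 fold change -0.25), *Spry4* (-0.62), *Etv5* (-0.13) and *Dusp6* (0.24) had edgeR adjusted p between 0.394 and 0.724. Of 7 tested genes that control FGF23 in bone, 2 lay below 0 and 5 above and 0 passed, *Mepe* had 0 counts in every library and *Dmp1* at most 19. *Fam20c*, the kinase that phosphorylates FGF23, had 63.8 ± 14.2 and 111 ± 77.3 CPM (log2 fold change 0.73, edgeR adjusted p = 0.185), and *Galnt3*, which glycosylates it, had 4.53 ± 2.48 and 6.30 ± 2.28 CPM (log2 fold change 0.48, edgeR adjusted p = 0.474).

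**Figure D4:**
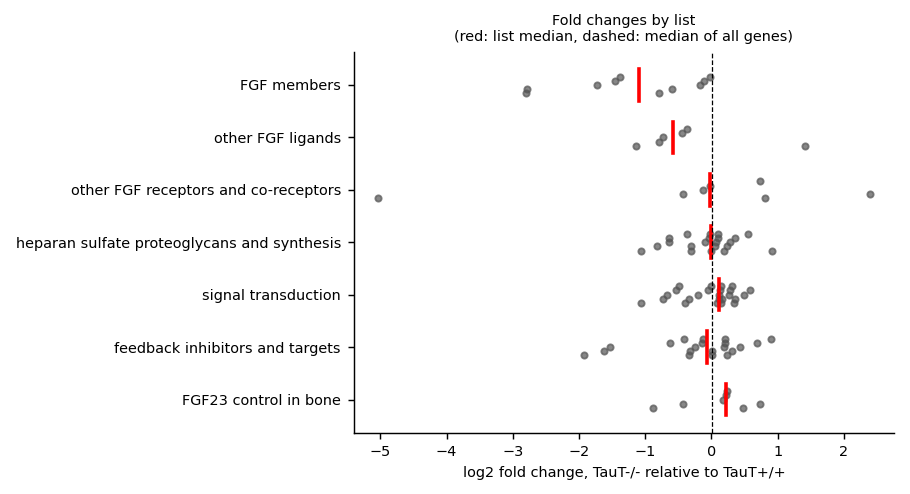
Log2 fold change, TauT-/- relative to TauT+/+, of the 10 FGF genes and of the tested genes of the 6 pathway lists, with 1 point per gene, a red bar at the median of each list and a dashed line at the median of all tested genes. The FGF genes all lie below 0 with a median of -1.09, and the other lists lie on both sides of 0. All lists were chosen with earlier results of these data known.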

How the data were processed

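The authors made oligo-dT primed cDNA from MSC RNA and amplified it, and whether the kit marks the strand is not given in the sources used here. Per the submitters' processing notes and the paper, the authors trimmed reads with fastp 0.23.1, aligned them to GRCm39 (GENCODE M31) by STAR 2.7.9a, and ran featureCounts of Subread 2.0.1 with a strand setting. The authors deposited these counts unnormalized, as whole numbers for 56832 genes in 15 libraries, and 0 columns were left without a sample.

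Counts were filtered with filterByExpr by the 4 groups of sex label and genotype, scaled by TMM and tested in R 4.3.3 with edgeR 4.0.16 (quasi-likelihood test, sex label and genotype in the model, Benjamini-Hochberg adjustment over 18263 genes). The interaction was tested with 1 term per group. DESeq2 1.42.0 and limma 3.58.1 voom with sample quality weights were run on the same model. Other alternatives were other scalings and filters, no sex label, the replicate number as a block, each sex label alone, and leaving out libraries. Deviations of libraries with the same replicate number correlated at 0.191 to 0.612 among male-labelled libraries, each best with its own number. Among female-labelled ones they correlated at -0.0480 to 0.263, and only number 1 was best with its own. The comparison number by number was therefore limited to male-labelled libraries. The fit with the replicate number as a block used all 15 libraries, so it also joined female-labelled libraries by number. The filter by the model, the block in male-labelled libraries alone, the ratio in 13 libraries and the ratio without *Fgf11* were chosen after seeing the data. CPM per kb used merged exons of GENCODE M39, a later annotation of the same build, in which 92.2% of gene symbols matched uniquely. Promoters came from RefSeq on GRCm38.p6. Correlations used log2 CPM and 100000 permutations in SciPy 1.17.1. The fits were tested on simulated data.

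The FGF genes and pathway lists were chosen with earlier results of these data known. Genes named beside them are overlapping genes, the 5 most like *Fgf2*, and from each pathway list those past the threshold and the 2 with the largest change at 1 CPM or more. Total counts per library set the precision, and counts of amplified reads without molecular identifiers are not independent molecules.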

Additional observations from a re-analysis of the deposited data

Results flagged for a closer look

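Within the groups of 4 libraries, the highest or lowest value was compared with its nearest neighbour, as a share of the range of the group, for the 10 FGF genes and the log2 ratio of summed ligand to summed receptor level. In 5 of 33 groups the share passed 0.829, the critical value of Dixon's test at 4 libraries. For normal values 1.65 groups would be expected to pass. The gene levels were taken as CPM, which need not be normal, and the groups share libraries. The 5 groups were therefore not judged against that number. TauT-/- male 2 stood above its group for *Fgf1* (0.941) and *Fgf18* (0.992), and TauT-/- female 2 stood above its group for *Fgf2* (0.972). TauT-/- male 1, whose sex-linked genes went against its label, stood above its group for *Fgf11* (0.839) and *Fgf23* (0.829). The macrophage markers summed to 11269 CPM in TauT-/- male 2 and 19528 CPM in TauT-/- female 2, and the MSC markers to 5331 and 6480 CPM, and their part in these values was not tested.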

How the results depend on the processing

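Of 293 log2 fold changes of the 10 genes recomputed under another setting, 268 kept their direction and side of the threshold, 11 newly passed it, 0 lost it and 14 changed sign. The number of the 10 genes called lower was 0 in edgeR, 3 with DESeq2, 2 with voom, 1 without the sex-label term and 1 with the replicate block, and 0 to 2 when each library was left out. It was 2 without TauT+/+ male 3 (*Fgfr2* and *Fgfrl1*) and 2 without TauT-/- male 2 (*Fgf1* and *Fgf18*), and 0 with other scalings, other filters, 1 sex label alone (also for male-labelled libraries with the replicate block), or 13 or 12 libraries. Sign changes were found for 4 genes. *Fgf7* was 0.0382 with the replicate block, 0.0478 in male-labelled libraries and -0.24 to 0.13 without 1 library, above 0 in 7 of those fits. *Fgf11* was 0.11 without the sex label, 0.63 in female-labelled libraries and -0.50 to 0.30 without 1 library, above 0 without TauT+/+ male 4. *Fgf18* was 1.01 in male-labelled libraries, where the replicate block gave -1.21, and -2.5 in female-labelled ones, and *Fgfr1* was 0.0126 in female-labelled libraries.

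Calls over all genes moved with the setting, from 108 lower and 103 higher to 1139 and 952 with DESeq2, 535 and 659 with voom, 202 and 208 without the sex label, and 0 and 0 in 12 libraries; in 13 libraries they were 0 and 2, or 0 and 7. The strict filter on counts gave 200 and 115, no filter 42 and 32, and leaving out each library 4 to 766 lower and 8 to 470 higher, with the highest counts without TauT+/+ male 3. The replicate block gave 102 lower and 69 higher calls, and *Fgfrl1* passed (log2 fold change -1.30, edgeR adjusted p = 0.0385). *Fgf23* was not tested where a filter removed it, as in the fits of 1 sex label. The difference in the log2 ratio of ligand to receptor was 0.361 without length scaling, 0.443 with the longest transcript, 0.433 without *Fgf11*, 0.381 and 0.390 in 13 libraries, 0.381 to 0.786 without 1 library and -0.105 without *Fgf7*. Depth limits *Fgf23*, *Fgf1* and *Fgf18* most.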
